A study of Gallus gallus with 20 samples.

Results

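The comparison described here is that of late skin mesenchyme, metatarsal scale skin at embryonic day 11 (E11sm) against dorsal feather skin at embryonic day 9 (E9fm), in White Leghorn chicken embryos. All arrays titled as one of these 2 groups were taken, 3 for E11sm and 3 for E9fm, or 6 of the 20 arrays of the series. The series profiled both skin regions at an earlier and a later stage on Affymetrix arrays, with epithelium and mesenchyme parted in EDTA, and its purpose was to find genes that set feather skin apart from scale skin. The labels call the tissue pooled, and the study's methods give a few embryos for each biological repeat of RNA without saying whether this holds for the arrays. By the study's design both groups stand for skin whose fate is fixed. E11sm came from embryos 11 days old and E9fm from embryos 9 days old, so skin region and embryo age cannot be told apart. Each value is a level on the log2 scale, made by the authors with RMA, and the 13009 genes with a symbol are each represented by 1 probe set. Differences are E11sm minus E9fm in log2 units, so a difference of 1 is a doubling, and a gene is said to pass where limma's adjusted p is below 0.05. Levels of different probe sets are not compared, since probes differ in brightness. The arrays measured bulk RNA, in which fewer cells of a type and less RNA per cell cannot be told apart.

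The array labelled E9fm replicate 1 went against its label. TBX4, a T-box transcription factor of the hindlimb, had a level of 10.70, 10.20 and 10.11 on the E11sm arrays, against 10.39 on the array labelled E9fm replicate 1 and 5.29 and 5.35 on E9fm replicates 2 and 3. HOXC9, which marks trunk positions, had a level of 5.36, 5.49 and 5.08 in E11sm, against 5.82 on that array and 9.69 and 9.56 on replicates 2 and 3. So for both genes this array lay with the scale arrays and the other E9fm arrays lay apart. Over all 38439 probe sets its levels correlated with E11sm replicates 1, 2 and 3 at 0.986, 0.974 and 0.978. With E9fm replicates 2 and 3 they correlated at 0.961 and 0.966, whereas those 2 arrays correlated at 0.978 with each other. With E9 scale mesenchyme (E9sm) replicates 1 and 2 they correlated at 0.983 and 0.978. For E7 feather mesenchyme (E7fm) replicates 1 and 2 the values were 0.97 and 0.969. PITX1, another hindlimb factor, ran the same way, at 9.87, 10.07 and 9.48 in E11sm, against 10.71 on the array labelled E9fm replicate 1 and 7.41 and 7.13 on replicates 2 and 3. TBX5, the forelimb counterpart of TBX4, stayed between 5.02 and 5.63 in E11sm, against 5.04 to 5.20 over the 3 E9fm arrays. Each result is therefore given with all arrays and without this one, and the results without it rest on 3 E11sm and 2 E9fm arrays. The array was doubted because of levels such as these, so the larger counts without it are a description and not independent support for a difference between the skins. The same holds without it for the adjusted p of each gene on which this array lay with the scale arrays. TBX4, HOXC9 and PITX1 are among these genes, and the limit extends to tests of their late difference against another difference. The mesenchymal factor TWIST2 was between 12.11 and 12.65 in E11sm, against 12.07 to 12.70 in E9fm with all arrays.

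Skin appendages form through exchange of signals between epithelium and the mesenchyme below it, and the mesenchyme carries much of the regional information on whether a feather or a scale arises. HOX genes give cells their position along the trunk and the limb, with the trunk genes at the front end of each cluster and the genes of the distal limb at its far end. T-box, PITX and other transcription factors separate hindlimb from forelimb and flank, and WNT, BMP, FGF and EDA signals place and shape the buds.

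With all arrays, late scale mesenchyme differed from late feather mesenchyme in 2 genes. AvBD1, a beta-defensin that acts against microbes, and MAB21L1, a cell-fate gene, were both higher in E11sm. AvBD1 had a level of 5.57, 5.84 and 6.14 in E11sm, against 4.55, 4.34 and 4.43 in E9fm. MAB21L1 had a level of 5.84, 5.78 and 6.42 in E11sm, against 4.81, 3.87 and 4.11 in E9fm. The groups did not overlap for either gene. Both genes are dim, with every E9fm level below the array medians, which lay between 5.62 and 5.69. A fit to brighter probe sets only left both out, and no probe set passed there. The differences were +1.41 for AvBD1 (adjusted p = 0.006907) and +1.75 for MAB21L1 (adjusted p = 0.02448). These are 2 of the 38439 probe sets tested, or 0.0052%, and of the 13009 genes, or 0.0154%, and 1810 probe sets had an unadjusted p below 0.05. Both calls were lost in a fit to E11sm and E9fm only (adjusted p = 0.3047 for AvBD1 and 0.4613 for MAB21L1) and in a fit to the mesenchyme groups only (0.397 and 0.7582), and AvBD1 came to +0.70 as the median of its probe sets (adjusted p = 0.1661). With array weights 200 probe sets passed. With the replicate number as a block 1 probe set passed, AvBD1 (adjusted p = 0.01663), and MAB21L1 no longer did (adjusted p = 0.07591). No probe set passed when E11sm replicate 2, E9fm replicate 2 or E9fm replicate 3 was left out, and AvBD1 still passed without E11sm replicate 1 or 3, when MAB21L1 did not.

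Without the array labelled E9fm replicate 1, scale mesenchyme was higher in genes of the hindlimb and the distal limb and lower in trunk HOX genes, muscle genes and several secreted signals. Of 38439 probe sets, 707 passed (1.84%), 309 higher (0.804%) and 398 lower (1.04%) in E11sm. Of the 13009 genes, 393 passed by their representative probe set (3.02%), 179 higher (1.38%) and 214 lower (1.65%). The arrays of the 2 groups did not overlap in 3024 genes, or 23.2%, without the doubted array and in 1015 genes, or 7.8%, with it. By the 5-fold rule of the study's methods, which carries no test, 132 probe sets were called (0.343%), 55 higher (0.143%) and 77 lower (0.2%), against 33 with all arrays (0.0859%), 13 higher (0.0338%) and 20 lower (0.052%). The study's own number of differentially expressed probes for this comparison lies nearer to the 132 than to the 33. Its methods count 3 E9fm arrays, as the 33 does, whereas the 132 leaves 1 out. The numbers are thus no support for leaving it out. The median difference over all genes was -0.01579 without the doubted array and -0.0108 with it.

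**Figure D1:**
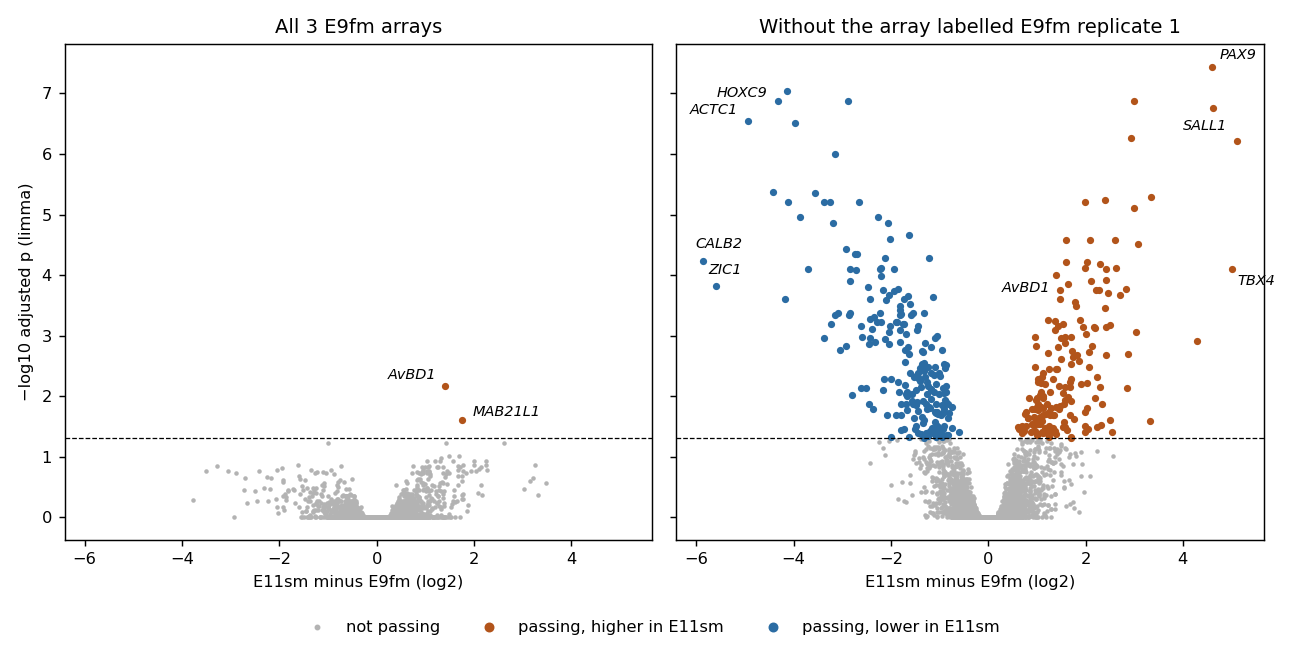
Difference E11sm minus E9fm (log2, horizontal) against −log10 of limma's adjusted p (vertical) for 13009 genes, with all arrays on the left and without the array labelled E9fm replicate 1 on the right. Above the dashed line (adjusted p of 0.05) lie AvBD1 and MAB21L1 on the left and 393 genes on the right, 179 higher and 214 lower in E11sm.

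On a scale with 0 at the mean of E9fm replicates 2 and 3 and 1 at the E11sm mean, the doubted array lay at a median of 1.055 over the 707 probe sets that passed without it, with quartiles of 0.8466 and 1.285. Of these probe sets 649 lay above 0.5, so on most of them this array had a scale-like level. It was nearer to the feather arrays on 58, of which 52 were among the 309 higher and 6 among the 398 lower in E11sm. With all arrays counted, 187 of the 707 probe sets still had groups that did not overlap, beside 6.47% of all probe sets. The 707 were selected on the other arrays of this check, so a share above that of all probe sets was built in.

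The largest positive differences were in regulators of limb identity. SALL1, a spalt zinc-finger factor of the limb bud, had a level of 8.47, 9.15 and 8.51 in E11sm, against 3.57 and 3.62 on E9fm replicates 2 and 3 and 8.50 on the doubted array. The difference was +5.12 with an SE of 0.35 (adjusted p = 6.126e-07). SALL1 levels on E9fm replicates 2 and 3 lie near the low end of all levels on the arrays. SALL1 has 2 probe sets, both higher, and 1 of them passed. The same was found for PITX1, MKX and TRPC7, and for MEIS2 with both lower. TBX4 averaged 10.34 ± 0.31 in E11sm (SD, n = 3) and 5.32 ± 0.04 on E9fm replicates 2 and 3 (SD, n = 2), a difference of +5.01 (SE 0.55, adjusted p = 7.979e-05). With all arrays the differences were +3.48 for SALL1 and +3.32 for TBX4, and neither passed (adjusted p = 0.2715 and 0.4279). PAX9, a paired-box factor of limb and axial mesenchyme, had a level of 8.73, 8.62 and 8.69 in E11sm, against 3.85 and 4.31 on E9fm replicates 2 and 3 and 8.81 on the doubted array. Its difference of +4.60 had the smallest adjusted p of any gene tested without that array, 3.597e-08. With all arrays it was +3.02 and did not pass (adjusted p = 0.3463).

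Of 35 limb patterning regulators, 12 passed as higher and 4 as lower without the doubted array, against 3.02% of all genes that passed. The 12 include TBX4 and PITX1, whose levels were a reason to doubt the array. The 4 include ZIC1, a factor of the dorsal trunk. The list's median difference was +0.48 and, with all arrays, +0.45, when only MAB21L1 passed. Besides SALL1, TBX4, PAX9 and MAB21L1, the higher members included MAB21L2 (+2.11), ALX1 (+2.00), LHX9 (+1.82), LHX2 (+1.43) and SALL4 (+1.23). PITX1 was +2.54 higher (adjusted p = 0.03941), and its call was lost when any of the 5 remaining arrays was left out and with the replicate number as a block (adjusted p = 0.06046). ALX1, a homeobox factor of limb and head mesenchyme, had a level of 5.27, 6.04 and 5.95 in E11sm, against 3.58 and 3.93 on E9fm replicates 2 and 3 and 4.65 on the doubted array, which here lay between the groups. The 4 lower members were ZIC1, MEIS2 (-1.85), TBX15 (-1.52) and PRRX1 (-1.36). MEIS2, a homeobox factor of the proximal limb and trunk, had a level of 6.16, 6.62 and 5.85 in E11sm, against 8.31 and 7.81 on E9fm replicates 2 and 3. Its groups did not overlap, and the doubted array, at 5.85, was at the lower edge of E11sm. When 1 of the 5 arrays was left out, 9 to 11 members were higher and 2 or 3 lower, and the calls of PRRX1 and TBX15 were each kept in 1 of those 5 fits.

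**Figure D2:**
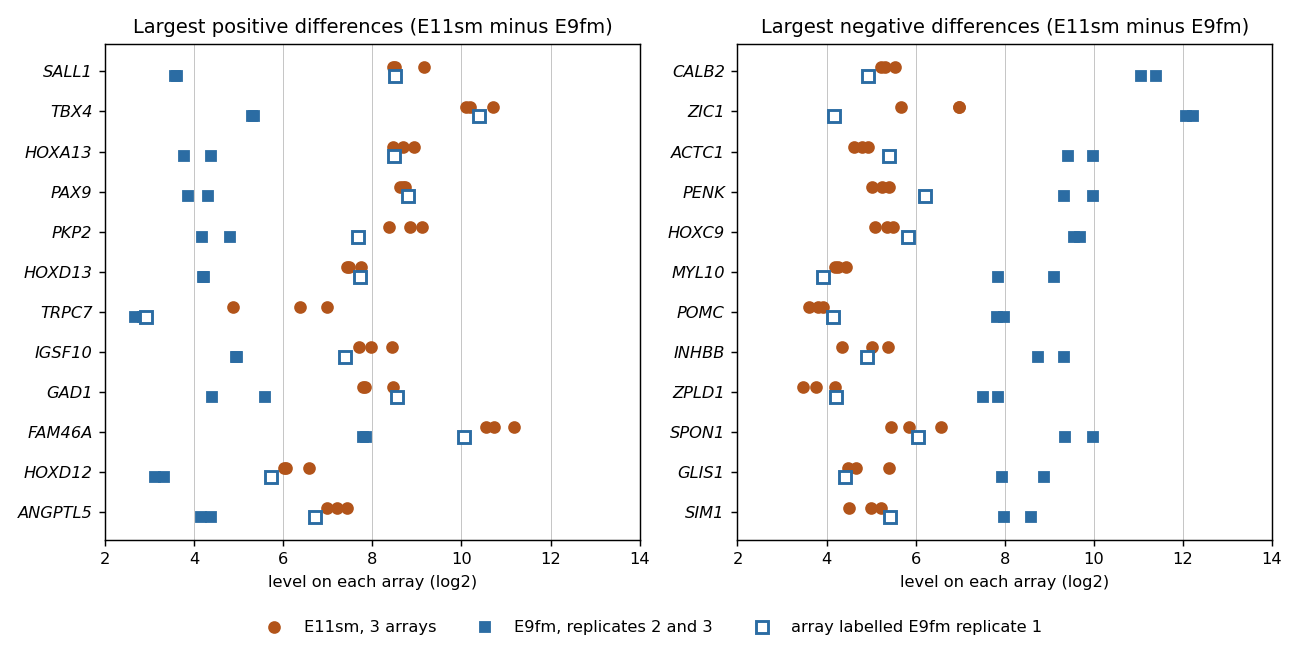
Level of each array (log2, horizontal) for the 12 highest and the 12 lowest genes by difference E11sm minus E9fm. Differences are from the fit without the array labelled E9fm replicate 1, in which the genes passed and their groups did not overlap. Symbols that begin with LOC were left out. Filled circles are the 3 E11sm arrays, filled squares E9fm replicates 2 and 3, and open squares the array labelled E9fm replicate 1, which lies with the scale arrays on most rows but at 2.92 on the row of TRPC7, beside 2.85 and 2.67 on the other E9fm arrays.

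Most HOX genes that passed split by their place in the clusters. Of 19 trunk HOX genes (paralog groups 1 to 9), 11 were lower and none higher in E11sm, beside 1.65% lower and 1.38% higher of all genes, with a list median of -1.18 without the doubted array and -0.73 with it. None of the 19 passed with all arrays. The 11 include HOXC9, whose levels were a reason to doubt the array. HOXC9 had the largest difference of the list at -4.32 (SE 0.24, adjusted p = 1.318e-07), followed by HOXB5 at -3.37. HOXB5 had a level of 4.07, 4.56 and 5.04 in E11sm, against 8.10 and 7.76 on E9fm replicates 2 and 3 and 3.91 on the doubted array. The lower members also held HOXB3 (-2.52), HOXB6 (-2.26), HOXB4 (-2.22), HOXA4 (-1.86) and HOXA3 (-1.66). The remaining ones were HOXA6, HOXB7, HOXA5 and HOXA7, between -1.54 and -1.13. HOXA4 was one of few genes with the doubted array nearer to the feather side, at 7.51, beside 8.02 and 8.46 on E9fm replicates 2 and 3 against 7.03, 5.99 and 6.11 in E11sm. Between 7 members, without E9fm replicate 2, and 10 were lower when 1 of the 5 arrays was left out. Calls lost there were those of HOXA4 without E9fm replicate 3, HOXB3 and HOXB7 without E9fm replicate 2, HOXA3 without either, and HOXA6 and HOXA7 in 3 and 4 of 5 fits.

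Of 10 distal HOX genes (paralog groups 10 to 13), 4 were higher and 1 was lower in E11sm, beside 1.38% and 1.65% of all genes. The list median was +0.55 without the doubted array and +0.27 with it, when none passed. HOXA13, which is required for the autopod, the distal part of the limb, had a level of 8.68, 8.94 and 8.46 in E11sm, against 3.77 and 4.37 on E9fm replicates 2 and 3 and 8.49 on the doubted array. The difference was +4.62 (SE 0.28, adjusted p = 1.729e-07). HOXD13 was +3.34 higher, HOXD12 +2.99 and HOXD11 +1.67. The HOXD11 call was kept in 1 of 5 fits that each left out an array. HOXC11 was lower by a small amount, -0.97 (adjusted p = 0.03702), and lost its call when any of the 5 arrays was left out. HOXC11 thus ran against the HOXA and HOXD members that passed. Of the 10 distal genes 6 had differences above 0. HOXD10 had the most negative difference, -1.16, and did not pass (adjusted p = 0.3848).

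Among 33 dermal transcription factors 7 were lower and 1 was higher in E11sm without the doubted array, beside 1.65% and 1.38% of all genes, with a list median of -0.20 and, with all arrays, -0.10 and none that passed. Without E9fm replicate 3 as well, 4 were lower and none higher, and FOXC2 and SNAI2 were among those that no longer passed (adjusted p = 0.2198 and 0.11). ZIC1, a zinc-finger factor of the dorsal trunk, had a level of 6.98, 6.98 and 5.67 in E11sm, against 12.07 and 12.22 on E9fm replicates 2 and 3. The doubted array was lower still, at 4.16. The difference was -5.60 (SE 0.66, adjusted p = 0.0001535) and -2.94 with all arrays, which did not pass. SIM1, a bHLH-PAS factor of somite derivatives, was lower at -3.37 and FOXP2, a forkhead factor, at -2.84. For SIM1, 2 of its 3 probe sets were lower. SOX18, which has roles in vessels and in hair follicles in the mouse, was at 9.81, 9.91 and 9.45 in E11sm, against 12.42 and 12.89 on E9fm replicates 2 and 3. The doubted array had the lowest SOX18 level of all 6, 7.35, so the E11sm arrays lay between it and the other E9fm arrays. In early scale mesenchyme E9sm replicates 1 and 2 had 7.31 and 9.72. TSHZ3, a teashirt zinc-finger factor, was the higher member, at +2.30 (adjusted p = 0.007028, and 0.128 without E9fm replicate 3). EN1, an engrailed homeobox factor, was at -0.49 and did not pass, and its levels on single arrays lay between 8.04 and 8.52 in E11sm, against 8.59 and 8.82 on E9fm replicates 2 and 3.

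A smaller set of genes was higher in E11sm with the doubted array on the feather side. AvBD1 and MAB21L1 lead this set. On E9sm only the genes named in this paragraph were looked at, not the whole set. For most of these the early scale array E9sm replicate 1 was low as well, while E9sm replicate 2 was higher. Low levels of them were thus also measured in scale mesenchyme. MAB21L1 was an exception, at 5.66 and 6.27 in E9sm, against 4.13 and 4.01 in E7fm. AvBD1 had a level of 4.52 and 4.93 in E9sm, against 4.57 and 4.39 in E7fm. AvBD7, a second beta-defensin, had a level of 5.20, 5.85 and 5.75 in E11sm, against 4.43, 4.54 and 4.71 in E9fm, and 4.63 and 5.27 in E9sm, with a late difference of +0.97 without the doubted array (adjusted p = 0.02262) and +1.04 with it (adjusted p = 0.1191). The other 14 genes of the 16 in the defence list did not pass in either fit, beside 3.02% of all genes that passed without the doubted array. Beta-defensin genes resemble each other, and whether probes of one also bind another was not tested. MMP27, a matrix metalloprotease, had a level of 11.46, 11.32 and 11.03 in E11sm, against 9.25, 9.29 and 9.27 in E9fm. It had 9.56 and 11.40 in E9sm, against 10.47 and 10.11 in E7fm, so E9sm replicate 1 lay below early feather mesenchyme. The late difference of MMP27 was +1.99 without the doubted array (adjusted p = 0.01848) and +2.00 with it (adjusted p = 0.1191). TRPC7, a cation channel, had a level of 6.37, 6.99 and 4.87 in E11sm, against 2.92, 2.85 and 2.67 in E9fm. Its E11sm levels were spread widely, yet all lay above E9fm, and its E9sm levels were 2.68 and 6.03. MKX, the mohawk homeobox factor of tendon, had a level of 5.76, 6.21 and 5.36 in E11sm, against 3.69, 2.87 and 2.95 in E9fm, and was +2.87 higher without the doubted array. E9sm replicate 1 had 3.29 and E9sm replicate 2 had 5.35 for MKX, against 2.84 and 2.55 in E7fm. For THBS2 they had 8.82 and 10.08, both above the 7.24 and 7.33 of E7fm. THBS2, a thrombospondin of the matrix, was +1.32 higher (adjusted p = 0.03378) and lost its call when any of the 5 arrays was left out. The calls of MMP27, AvBD7 and TRPC7 were each kept in 1 of 5 such fits, whereas those of AvBD1, MAB21L1 and MKX were kept in all 5.

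Other genes among the 12 largest negative differences have varied roles. CALB2, the calcium-binding protein calretinin, had a level of 5.23, 5.54 and 5.31 in E11sm, against 11.06 and 11.39 on E9fm replicates 2 and 3 and 4.94 on the doubted array. Its difference of -5.86 (SE 0.62, adjusted p = 5.882e-05) was the most negative of all genes that passed. PENK, the precursor of enkephalin peptides, had a level of 5.24, 5.41 and 5.02 in E11sm, against 9.97 and 9.33 on E9fm replicates 2 and 3. The doubted array lay near E11sm but above it, at 6.22. POMC, the precursor of corticotropin and melanocortins, had a level of 3.80, 3.60 and 3.91 in E11sm, against 7.83 and 7.99 on E9fm replicates 2 and 3 and 4.15 on the doubted array. For POMC the difference was -4.14 and for PENK -4.42. SPON1, a secreted matrix protein called F-spondin, was lower by 3.70, ZPLD1, a zona pellucida domain protein, by 3.86 and GLIS1, a zinc-finger factor, by 3.56, each in log2 units. All of these calls were kept whichever of the 5 arrays was left out. For ZPLD1, 3 of its 4 probe sets were lower.

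The remaining genes among the 12 largest positive differences have varied roles. PKP2, the desmosomal protein plakophilin 2, was +4.28 higher, with levels of 9.11, 8.84 and 8.37 in E11sm, against 4.81 and 4.17 on E9fm replicates 2 and 3. The doubted array lay below E11sm at 7.68. GAD1, the enzyme that makes the transmitter GABA, was +3.04 higher, with levels of 7.83, 8.47 and 7.78 in E11sm, against 5.58 and 4.39 on E9fm replicates 2 and 3 and 8.56 on the doubted array. IGSF10 (+3.08), FAM46A (+3.0) and ANGPTL5 (+2.93) were higher by similar amounts, and their E11sm arrays lay above every E9fm array, the doubted one included. Their differences with all arrays were +2.27, +2.25 and +2.11, with adjusted p of 0.1632, 0.1388 and 0.1613.

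Of 35 BMP pathway genes 5 were lower and 2 higher without the doubted array, beside 1.65% and 1.38% of all genes, with a median of -0.09 and, with all arrays, +0.07 and none that passed. SOSTDC1, a secreted BMP and WNT antagonist, had a level of 8.70, 8.64 and 8.09 in E11sm, against 11.49 and 11.75 on E9fm replicates 2 and 3 and 8.72 on the doubted array. Its difference was -3.15 (SE 0.22, adjusted p = 1.012e-06). FST, the activin and BMP antagonist follistatin, was at 7.27, 7.43 and 7.25 in E11sm, against 9.64 and 9.63 on E9fm replicates 2 and 3. The doubted array was the lowest of the 6 at 5.70, and E9sm replicates 1 and 2 had 5.65 and 7.31. The other lower members were BMPER (-1.83), GDF3 (-1.63) and ID3 (-1.05), and the higher ones BMP3 (+1.56) and SMAD9 (+1.06). The BMP3 call was kept in 1 of 5 fits that each left out an array, the ID3 call in 2, and the SMAD9 and BMPER calls were lost without E9fm replicate 3 (adjusted p = 0.1533 and 0.1875).

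Of 34 FGF and EDA genes 3 were lower in E11sm, beside 1.65% of all genes. They were FGF14 (-3.15), EDAR (-2.48) and FGF16 (-1.87), with a list median of +0.11 without the doubted array and +0.05 with it. EDAR, the ectodysplasin receptor known from placode epithelium, had a level of 4.42, 4.22 and 4.77 in E11sm, against 7.12 and 6.79 on E9fm replicates 2 and 3 and 4.61 on the doubted array. In the epithelium arrays EDAR was between 8.64 and 9.87 in E11 scale skin, against 8.41 to 8.94 in E9 feather skin. FGF10, a mesenchymal signal of bud and limb, was at 7.98, 8.62 and 7.65 in E11sm, against 5.76, 6.99 and 5.36 in E9fm. Its arrays did not overlap, but the difference of +1.90 without the doubted array did not pass (adjusted p = 0.08454), nor did +2.04 with it. INHBB, the beta B subunit of activin and inhibin, was the only one of 20 TGF-beta and activin genes that passed. It had a level of 5.38, 5.03 and 4.35 in E11sm, against 8.75 and 9.32 on E9fm replicates 2 and 3 and 4.90 on the doubted array, a difference of -4.11 (SE 0.35, adjusted p = 6.264e-06).

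No gene among 37 WNT ligands and receptors or 13 hedgehog genes passed in either fit, and their medians without the doubted array were -0.02 and -0.09. Members ranged from -1.0 for LGR5 to +1.42 for RSPO1 in the WNT list and from -1.26 for HHIP to +0.34 for HHAT in the hedgehog list. Of 21 WNT inhibitors and targets 3 were higher and 2 lower, beside 1.38% and 1.65% of all genes. DACT2 (+2.04), KREMEN1 (+1.89) and SFRP4 (+1.45) were higher, and TCF7L2 (-1.71) and SFRP1 (-1.10) lower. For SFRP1, 3 of its 4 probe sets were lower. KREMEN1, a receptor of the DKK inhibitors, had a level of 9.04, 9.09 and 9.01 in E11sm, against 7.55 and 6.78 on E9fm replicates 2 and 3 and 9.53 on the doubted array. Its E11sm levels differed by less than 0.1 while the 2 E9fm arrays lay apart. Over the 5 fits that each left out an array, the calls of TCF7L2 and SFRP1 were lost without E9fm replicate 3, that of SFRP4 without E9fm replicate 2 or 3, and that of DACT2 in all but 1. Single members passed in the Notch list, where the ligand JAG1 was -1.74 lower among 19 genes, and on both sides of the retinoic acid list of 19. There STRA6, the retinol uptake receptor, was at 7.59, 6.53 and 7.17 in E11sm, against 8.99 and 10.44 on E9fm replicates 2 and 3, while the receptor RARB was +1.10 higher. Of 33 ephrin, EPH and cadherin genes EPHA5 (-2.10) and EPHA7 (-2.0), receptors in cell sorting, were lower and CDH13 (+1.71) was higher. Of these, RARB lost its call without E9fm replicate 3, EPHA7 without E9fm replicate 2, JAG1 in 3 and CDH13 in 4 of the 5 fits, and CDH13 also with the replicate number as a block (adjusted p = 0.05901).

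Few matrix genes passed, and their counts stand beside 1.38% higher and 1.65% lower of all genes. Of 20 fibrillar and associated collagens, COL18A1, the source of endostatin, was lower at -1.70, with levels of 10.40, 10.05 and 10.17 in E11sm, against 11.83 and 11.98 on E9fm replicates 2 and 3. The other 19 had differences above 0 and did not pass, with a list median of +0.44, beside -0.01579 over all genes. COL1A1 was at 14.60, 14.25 and 14.18 in E11sm, against 14.53 on the doubted array and 13.49 and 13.93 on E9fm replicates 2 and 3 (adjusted p = 0.9659). Of 40 matricellular, elastic and proteoglycan genes THBS2 and NPNT (+1.48) were higher and HAPLN1 (-2.62) and EFEMP1 (-1.82) lower. HAPLN1, which links hyaluronan to proteoglycans, was at 7.64, 8.28 and 6.99 in E11sm, against 9.93 and 10.58 on E9fm replicates 2 and 3 and 8.01 on the doubted array. Among 30 matrix proteases and inhibitors MMP27 and the urokinase PLAU (+1.40) were higher and ADAMTS5 (-1.08) lower, and among 26 integrin and focal adhesion genes TLN2 (-1.25) and ITGB3 (-1.16) were lower. The medians of these 3 lists were -0.01, -0.13 and +0.01. PLAU ran the opposite way on 1 of its 3 probe sets. The call of COL18A1 was lost without E9fm replicate 2 or 3, that of HAPLN1 without E9fm replicate 3, those of NPNT and TLN2 in 3 and those of ADAMTS5 and ITGB3 in 4 of the 5 fits that each left out an array, and that of ITGB3 also with the replicate number as a block (adjusted p = 0.05233).

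A list of 9 calcium signalling genes was taken from those the study names, and the other channel subunits it names are counted apart. ATP2B1, a calcium pump of the plasma membrane, was the only one that passed without the doubted array, beside 3.02% of all genes. It had a level of 7.75, 7.97 and 7.02 in E11sm, against 8.85 and 9.54 on E9fm replicates 2 and 3 and 8.11 on the doubted array, and the difference was -1.62 (SE 0.26, adjusted p = 0.002021). With all arrays it was -1.26 (adjusted p = 0.1844), and without E9fm replicate 3 the adjusted p was 0.06725. The kinase CAMK4 was at 6.68, 6.35 and 6.45 in E11sm, against 5.83, 5.52 and 5.85 in E9fm, which do not overlap, yet +0.81 did not pass (adjusted p = 0.1387). The other 7, CAMK1G (+0.44), CAMK2D (+0.32), SLC8A3 (-0.25), ITPKA (+0.15), ORAI1 (+0.14), CACNA1D (+0.08) and PRKCB (+0.03), did not pass in either fit. For PRKCB, 1 of its 5 probe sets was higher. The list was chosen by the study on these arrays, so it is not independent evidence of a direction. Among 18 voltage-gated calcium channel subunits, those named by the study included, none passed in either fit, with members between -0.94 and +0.94. With 3.02% of all genes passing, a list of this size would seldom hold more than 1 call.

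**Figure D3:**
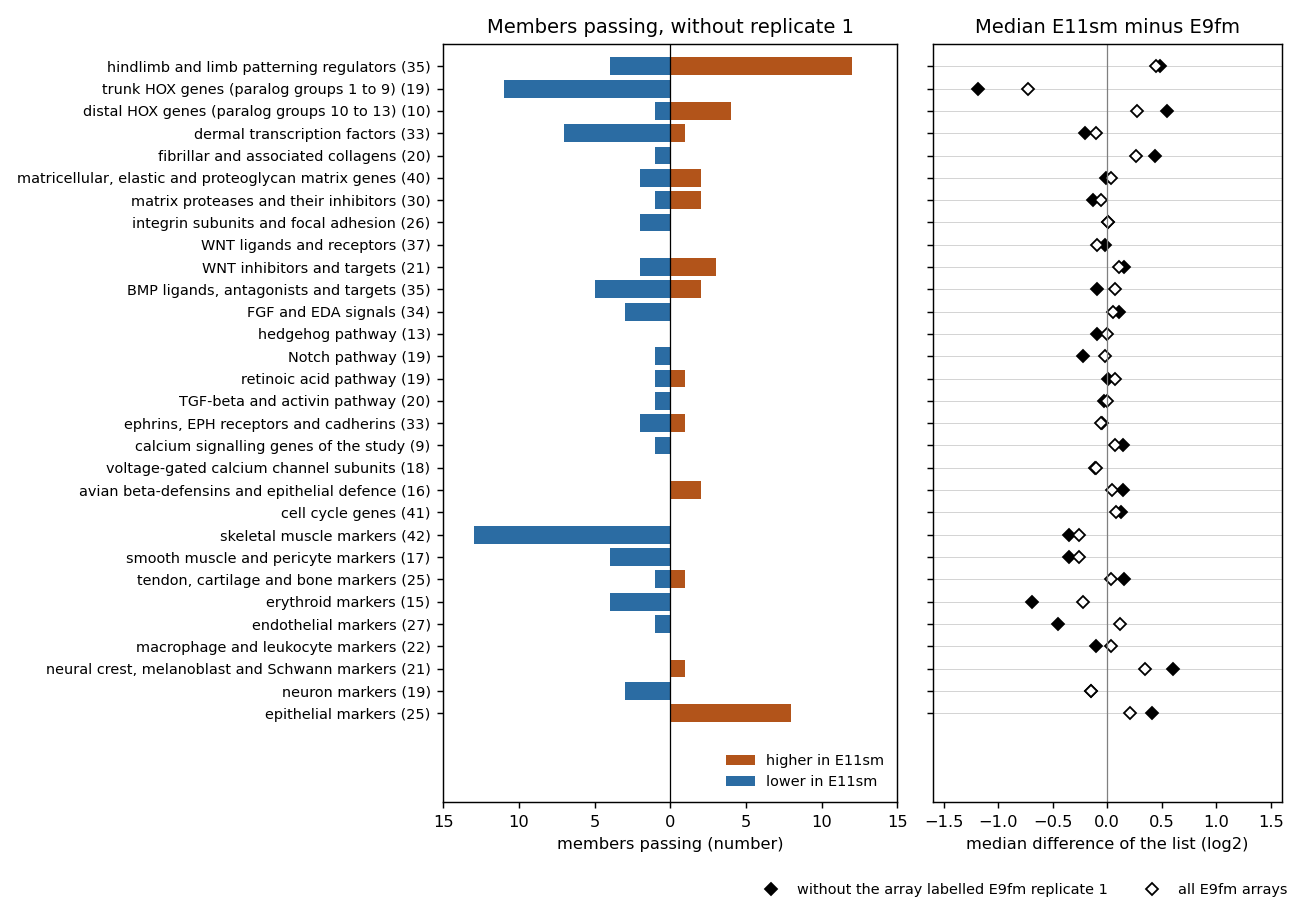
Left, the number of members of each list (size in brackets) that passed without the array labelled E9fm replicate 1, higher in E11sm to the right and lower to the left. Right, the median difference E11sm minus E9fm (log2) of each list without that array (filled) and with all arrays (open). Limb regulators have the most members higher, 12 of 35, and skeletal muscle markers the most lower, 13 of 42.

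Markers of other cell types moved with the comparison in both directions. Of 42 skeletal muscle markers 13 were lower in E11sm and none higher, beside 1.65% and 1.38% of all genes, with a median of -0.35 without the doubted array and -0.26 with it, when none passed. ACTC1, the alpha-actin of heart and embryonic skeletal muscle, had a level of 4.92, 4.62 and 4.79 in E11sm, against 9.99 and 9.43 on E9fm replicates 2 and 3 and 5.41 on the doubted array. Its difference was -4.94 (SE 0.31, adjusted p = 2.893e-07). MYL10, a myosin light chain outside the list, was at 4.20, 4.26 and 4.43 in E11sm, against 9.10 and 7.84 on E9fm replicates 2 and 3, and MYL1 was -2.89 lower. The myogenic factor MYOD1 was at 3.64, 3.45 and 3.59 in E11sm, against 6.31 and 5.23 on E9fm replicates 2 and 3, a difference of -2.21. MYF5 (-0.01) and PAX7 (-0.43), known from muscle precursors, and MYOG (-0.65), known from differentiating myocytes, did not pass. The mean level of the list was 4.78 to 5.02 in E11sm, against 5.69 and 5.62 on E9fm replicates 2 and 3 and 5.06 on the doubted array. Of 17 smooth muscle and pericyte markers 4 were lower, MYH11 (-3.09), ACTG2 (-2.37), MYOCD (-1.65) and SYNPO2 (-1.37), and E9fm replicate 3 was the highest array for the first 2, with 8.28 for MYH11 and 9.57 for ACTG2. When 1 of the 5 arrays was left out, 9 to 11 skeletal muscle markers were lower, and the ACTG2 call was lost in 3 of those 5 fits and the SYNPO2 call without E9fm replicate 3. What part muscle cells have in the differences of other genes was not tested.

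Of 15 erythroid markers 4 were lower in E11sm, beside 1.65% of all genes. They were the embryonic globin HBE (-3.05), HBBR (-2.81), HBZ (-2.02) and RHAG (-1.80), while the alpha globins HBA1 (-0.60) and HBAD (-0.69) did not pass. Without E9fm replicate 3 the HBBR call was lost and 2 markers were left, and the RHAG call was kept in 1 of 5 fits. Globin genes are close copies, so probes may read more than one. The mean level of the list was 7.03 to 7.49 in E11sm, against 8.19 and 8.37 on E9fm replicates 2 and 3, and it was lowest on the doubted array at 6.64. Endothelial markers had the same order. Their means were 7.37 to 7.72 in E11sm, against 7.95 and 7.90 on E9fm replicates 2 and 3 and 6.61 on the doubted array. SOX18 alone passed among 27, or 3.7%, near the 3.02% of all genes. The counts of the lists that follow in this paragraph stand beside the same 3.02%. CDH5, which defines endothelium, was at 10.68, 11.11 and 10.40 in E11sm, against 11.42 and 11.30 on E9fm replicates 2 and 3 and 8.97 on the doubted array. Of 19 neuron markers NEFM (-3.24), NEFL (-2.38) and NTRK3 (-0.75) were lower, the last not once any 1 of the 5 arrays was left out. In epithelium the E11 scale minus E9 feather differences of NEFM and NEFL were -1.87 and -1.46. Neither passed there (adjusted p = 0.057 and 0.05028), in a fit that kept the array labelled E9fe replicate 1, doubted below. That array had 7.0 for NEFM, against 8.69 and 8.67 on E9fe replicates 2 and 3. For NEFL it had 5.33, against 6.42 and 6.49. None of 22 macrophage and leukocyte markers passed. Among 21 neural crest, melanoblast and Schwann markers TFAP2B was +1.98 higher, with levels of 6.75, 6.74 and 6.68 in E11sm. It was brighter in epithelium, between 10.0 and 10.15 in E11 scale and 9.82 and 10.53 in E9 feather skin. TFAP2B thus did not mark that lineage alone. The related TFAP2A had the most negative difference of the list and did not pass (adjusted p = 0.2043). SOX10, which defines the lineage, was at 8.65, 8.31 and 8.18 in E11sm, against 7.58 and 7.99 on E9fm replicates 2 and 3. SOX10 did not pass (+0.60). In the tendon, cartilage and bone list of 25, MKX was higher and HAPLN1 lower. TNMD, a tendon gene, was at 13.32, 13.19 and 13.26 in E11sm, against 11.42 and 11.73 on E9fm replicates 2 and 3, and did not pass (adjusted p = 0.605). The HAPLN1 call was lost without E9fm replicate 3.

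Epithelial markers were higher in E11sm and highest on the doubted array. Of 25 markers 8 passed as higher and none as lower without that array, beside 1.38% and 1.65% of all genes, with a list median of +0.41 and, with all arrays, +0.21 and none that passed. The mean level of the list was 6.03 to 6.52 in E11sm, against 5.37 and 5.60 on E9fm replicates 2 and 3 and 7.18 on the doubted array. The cadherin CDH1 was at 8.01, 6.87 and 7.14 in E11sm, against 4.92 and 5.34 on E9fm replicates 2 and 3 and 9.54 on the doubted array, and it was between 12.39 and 12.78 in E11 scale epithelium. DSP, the desmosomal protein desmoplakin, was at 7.12, 6.24 and 6.42 in E11sm, against 4.31 and 4.30 on E9fm replicates 2 and 3 and 8.12 on the doubted array. KRT5 (+2.86), KRT7 (+2.28), ESRP2 (+1.94), EPCAM (+1.71), CLDN1 (+1.70) and COL17A1 (+1.55) also passed. TP63 (-0.07), which defines basal epidermis, and GRHL3 (-0.04) did not. With 1 of the 5 arrays left out 7 to 9 passed, and KRT5 was lost without E9fm replicate 2, EPCAM without E9fm replicate 3 and COL17A1 in 3 of those fits. PKP2, described above, was lower on the doubted array than on any E11sm array and so did not follow this order. What part epithelial cells have in the other differences was not tested.

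**Figure D4:**
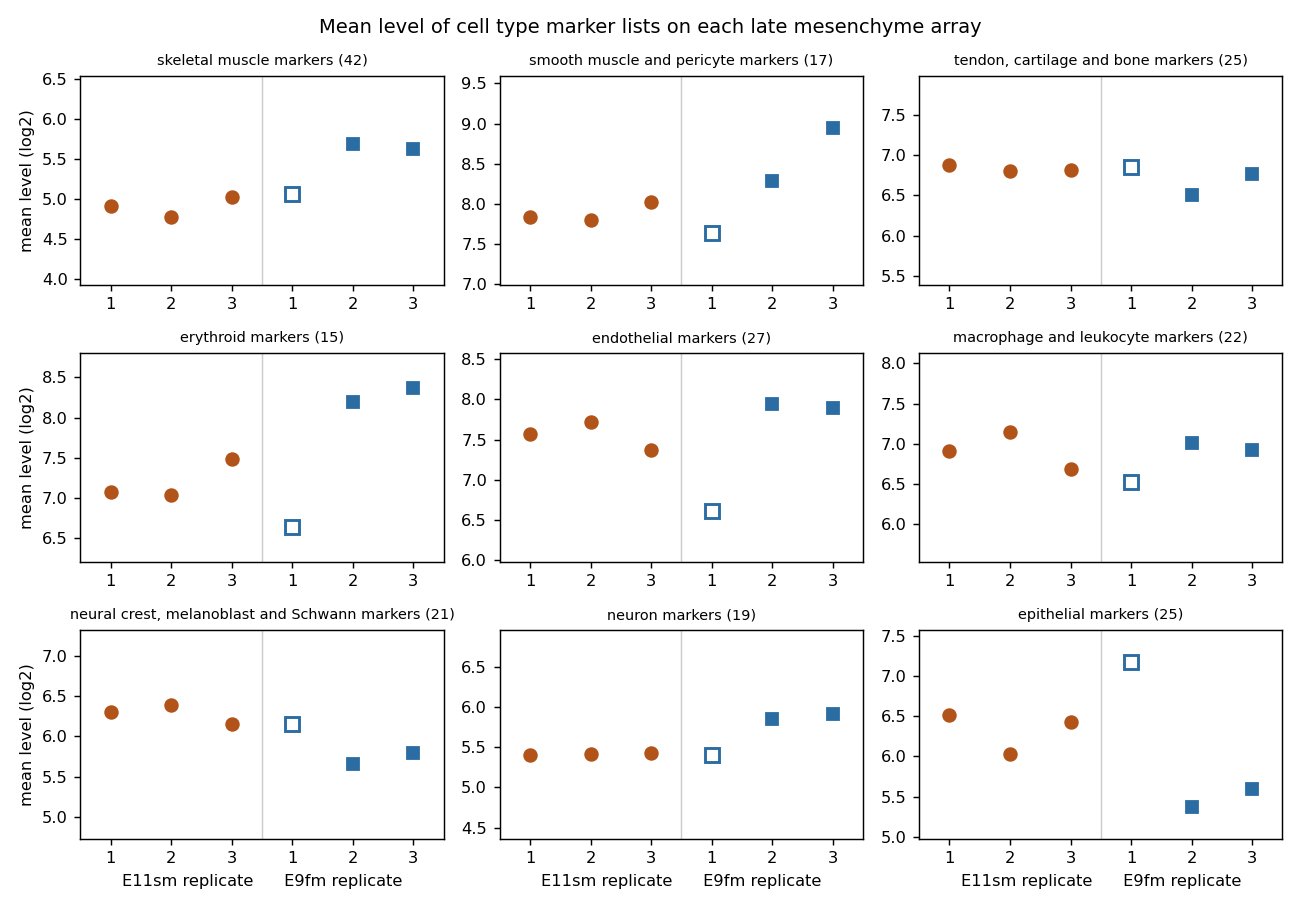
Mean level (log2, vertical) of each list of cell type markers, with its size in brackets, on the 3 E11sm arrays (circles), the array labelled E9fm replicate 1 (open square) and E9fm replicates 2 and 3 (filled squares). Skeletal muscle markers lie at 4.78 to 5.02 in E11sm, below 5.69 and 5.62 on E9fm replicates 2 and 3, and epithelial markers are highest on the array labelled E9fm replicate 1, at 7.18.

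None of 41 cell cycle genes passed in either fit, beside 3.02% of all genes without the doubted array. There their differences lay between -0.13 for AURKB and +0.52 for TYMS, with a median of +0.13. This was the narrowest range among the 30 lists.

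The late differences were set beside those of the earlier stage, E9 scale mesenchyme (E9sm, 2 arrays) against E7 feather mesenchyme (E7fm, 2 arrays), which share no array with them. E9sm replicate 2 correlated with the 3 E11sm arrays at 0.986 to 0.992 and with E9sm replicate 1 at 0.982, so it also lay close to the late scale arrays. Between E9sm and E7fm 596 probe sets passed (1.55%), with 267 higher (0.695%) and 329 lower (0.856%). Of these, 235 also passed late with the same direction, which is 33.24% of the late calls and 39.43% of the early ones. Another 4 passed in both with opposite direction. Without E9sm replicate 2 the early count was 542, and 190 passed in both with the same direction. The shared calls comprised 118 that were higher and 117 that were lower in scale at both stages. Among limb and HOX genes TBX4 was +5.01 higher late and +6.45 early, SALL1 +5.12 and +4.95, HOXA13 +4.62 and +4.79, HOXC9 -4.32 and -4.77 and ZIC1 -5.60 and -6.74. Of 35 limb regulators 11 were higher and 3 lower early, and 10 of 19 trunk HOX genes were lower early, beside 2.4% of all genes that passed in that comparison, 1.09% higher and 1.31% lower.

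A test of the late minus the early difference found 114 probe sets (0.297%), 44 with a more positive (0.114%) and 70 with a more negative late difference (0.182%), and 75 of them were among the 707 late calls. Muscle genes were among those more negative late. ACTC1 was at 4.84 and 4.93 in E9sm, against 6.01 and 5.78 in E7fm, and its late minus early difference was -3.93 (adjusted p = 0.0008039). MYL1, TNNC2, ACTN2 and MYOD1 also passed this test, at -2.53, -2.50, -1.79 and -2.02, and 1 of 42 muscle markers was lower early, MYL4, against 13 late. POMC was at 3.65 and 3.68 in E9sm, against 3.81 and 3.74 in E7fm, and SOSTDC1 at 8.03 and 8.58 in E9sm, against 8.22 and 7.87 in E7fm. For both, E9fm replicates 2 and 3 therefore stood apart from all other mesenchyme arrays. EDAR had the same pattern, between 4.42 and 4.49 on the 4 early arrays. On the positive side SPP2, a secreted phosphoprotein, was at 6.35, 6.12 and 6.12 in E11sm, against 3.77 and 3.79 on E9fm replicates 2 and 3, but at 6.09 and 5.68 in E9sm, against 7.80 and 6.78 in E7fm. NXPH1, a neurexin ligand, was -2.43 lower early and +1.07 late, where it did not pass (adjusted p = 0.05275, and 0.019 with the replicate number as a block). With all 20 arrays 17 probe sets passed this test, and without E7fm replicate 2 the count was 34.

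**Figure D5:**
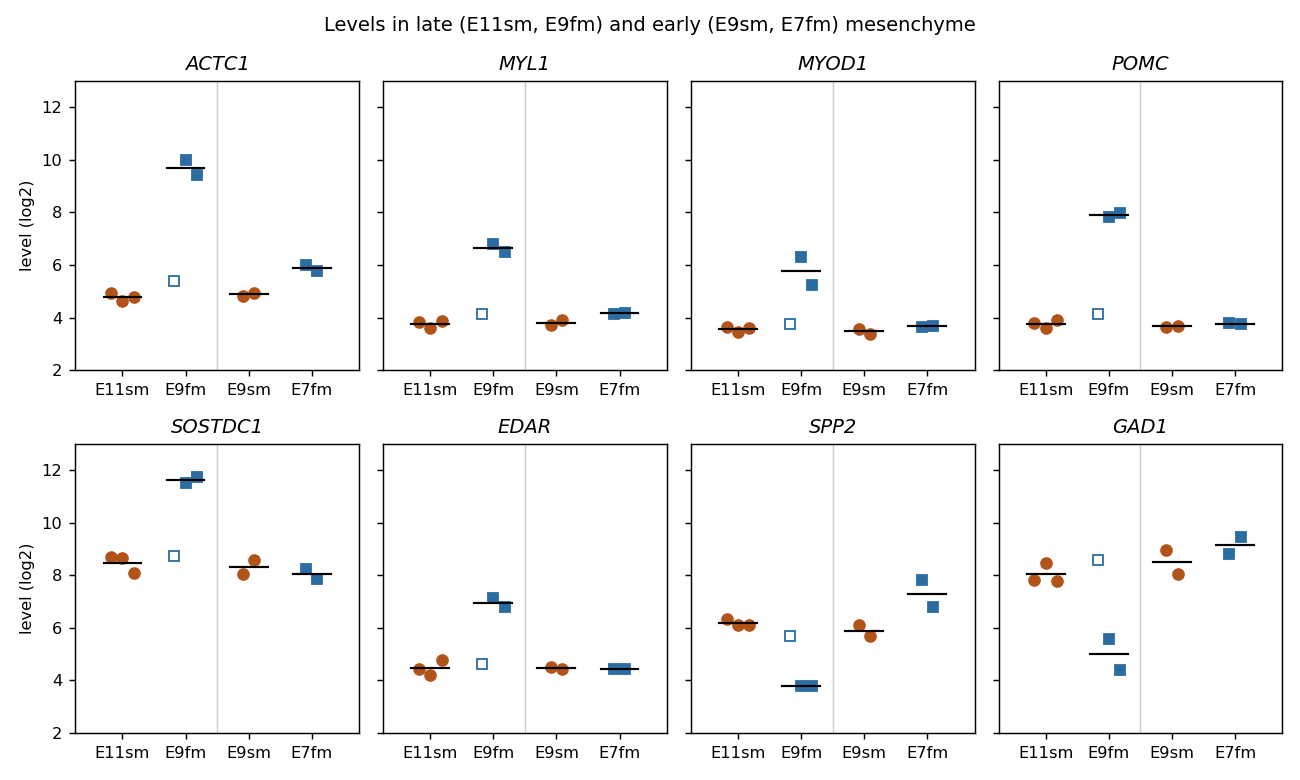
Level (log2, vertical) of 8 genes on each array of the 4 mesenchyme groups, the late pair E11sm and E9fm on the left of each panel and the early pair E9sm and E7fm on the right, with bars at group means that leave out the array labelled E9fm replicate 1 (open square). ACTC1, MYL1, MYOD1, POMC, SOSTDC1 and EDAR are high on E9fm replicates 2 and 3 alone, and SPP2 and GAD1 are low on them.

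The late difference in mesenchyme was also tested against that in epithelium, E11 scale (E11se) against E9 feather (E9fe), and 453 probe sets differed (1.18%), 207 in the positive (0.539%) and 246 in the negative direction (0.64%), of which 341 were among the 707 late calls. TBX4 was at 4.99, 4.10 and 4.56 in E11se, against 4.14 and 4.14 on E9fe replicates 2 and 3, so it was near the low end of the scale in both epithelia. The array labelled E9fe replicate 1 held more, 6.53, and PITX1 was at 6.97 there, against 4.69 and 4.35 on E9fe replicates 2 and 3. For CALB2 it had 5.13, against 8.23 and 8.26 on those arrays and 4.88, 4.76 and 5.05 in E11se. It is thus a doubted array as well, and it was kept in this test and in the main fits, where it adds to the pooled spread. The mesenchyme minus epithelium difference was +5.40 for TBX4 (adjusted p = 0.001164), +4.86 for HOXA13 and -6.60 for ZIC1. HOXC9 was at 9.34, 10.01 and 9.33 in E11se, against 9.64, 8.94 and 8.78 in E9fe, so scale epithelium held levels of this trunk gene that scale mesenchyme did not, and the difference between compartments was -4.76 (adjusted p = 2.549e-06). NECAB1, a calcium-binding protein, was at 9.25, 9.39 and 8.96 in E11sm, against 10.06, 8.26 and 7.40 in E9fm, which do not pass, but at 5.14, 4.61 and 4.83 in E11se, against 6.41, 9.86 and 9.53 in E9fe. ACTC1 differed by -4.80 between the compartments. In epithelium, with E9fe replicate 1 kept, the differences of SALL1, PAX9, HOXA13 and HOXD13 were +0.39, -0.14, -0.24 and +0.03, and none passed. Each of these genes was highest on that array among the E9fe arrays, SALL1 at 4.80, against 3.28 and 3.64. With all 20 arrays 27 probe sets passed this test, and without both doubted E9 feather arrays 871 did.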

How the data were processed

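RNA of E11sm (3 arrays) and E9fm (3 arrays), among 20 arrays in 8 groups by their labels, was hybridised to a chicken genome array. By their titles, arrays sharing a group are biological replicates. The log2 levels were deposited by the authors after RMA (affy, per the submitters' processing notes), that is background correction, quantile normalization across arrays and a summary per probe set. These steps stand as deposited and the genome build behind the probes is not given in the sources used here. RMA compresses large differences, and array medians lay between 5.62 and 5.69. The number of arrays limits the precision. The study's methods count the arrays of each group otherwise than the labels do, and the labels were followed.

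Of 38535 probe sets 96 array controls were left out. By the platform annotation 27168 of the 38439 tested carried 1 symbol, 177 several and 11094 none. The 13009 genes were represented by the probe set of highest mean over all arrays. Of these, 12850 matched a current RefSeq gene. limma 3.58.1 in R 4.3.3 fitted 1 mean per group over all 8 groups, with all 20 arrays or with 19, eBayes moderation and Benjamini-Hochberg adjustment across all 38439 of them, with a threshold of 0.05. Leaving out an array that leaves a lone one assumes that this one varies like the other groups. The study's methods give no test of single genes. The fit was tested on simulated data. Python 3.11.15, pandas 2.3.3, numpy 2.4.6 and matplotlib 3.10.9 served for summaries and plots.

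E11sm and E9fm share replicate numbers 1 to 3. Deviations from the group means of same-numbered arrays correlated at 0.209, 0.652 and 0.298, the first with the doubted array as partner. Without that array replicates 2 and 3 gave 0.629 and 0.453, where the E9fm deviations mirror each other by construction. The numbers may therefore pair the arrays, but the main fits treat arrays as independent and use the number as a block only as an alternative. The possible pairing comes from the data, since no label says what a number shares. Results with the number as a block are given where they change a call of a gene named by the rule below.

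The members and the 30 gene lists were chosen with earlier results of these data known. Symbols that begin with LOC were left out when genes were ranked for naming. The 12 largest each way were taken from genes that passed and whose groups did not overlap. Genes named are those that passed with all arrays, the 12 largest differences each way without the doubted array, up to 2 each way per list, the study's calcium genes with TBX4, PITX1, TBX5, HOXA13 and HOXC9, and 3 each way per difference of differences. Others named beside a list, such as TWIST2, FOXP2, EN1, FGF10, COL1A1, MYOD1, CDH5, CDH1, SOX10, TNMD, the further members of lists given by value, and the genes at the ends of a range, were chosen after their values were seen. Alternatives were the arrays in the fit, each array left out, the replicate block, array weights, an intensity trend, a filter on dim probe sets, 2 further normalizations and the gene median.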

Additional observations from a re-analysis of the deposited data

Results flagged for a closer look

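For 114 probe sets the late difference between scale and feather mesenchyme (E11sm minus E9fm) was not that of the early stage (E9sm minus E7fm), and for 453 it was not that of late epithelium (E11se minus E9fe), both without the array labelled E9fm replicate 1 and by limma's test of the difference of differences. Genes that passed were ranked by their representative probe set, with symbols that begin with LOC left out. The largest late minus early values were -4.31 for MYL10, -4.03 for POMC and -3.93 for ACTC1, and +3.82 for SPP2, +3.67 for GAD1 and +3.50 for NXPH1. The largest mesenchyme minus epithelium values were +5.40 for TBX4, +5.11 for NECAB1 and +4.86 for HOXA13, and -6.60 for ZIC1, -4.80 for ACTC1 and -4.76 for HOXC9. Beyond the arrays described above, outliers within a group were not looked for, since no group holds more than 3 arrays.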

How the results depend on the processing

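Differences rest on 2 or 3 arrays a group and on the exclusion of 1 array. With all arrays the 2 calls became 0 in fits to E11sm and E9fm only, to mesenchyme only, to brighter probe sets and after renewed quantile normalization, 4 with an intensity trend, 5 with the gene median, 1 with the replicate block and 200 with array weights (107 higher, 93 lower). Leaving out 1 array gave 0 to 707, 707 being without E9fm replicate 1. Without E9fm replicate 1 the 707 calls became 350 in a fit to E11sm and E9fm only, 420 over brighter probe sets (226 higher, 194 lower), 378 after renewed quantile normalization (190 and 188) and 425 with the gene median, and leaving out 1 more array gave 394 to 581, the lowest without E9fm replicate 3. The single arrays left out there were of E11sm and E9fm. Leaving the doubted array E9fe replicate 1 out of the pooled spread gave 889 (417 higher, 472 lower). The replicate block gave 775. Of 72 named genes that passed there, 46 kept their call whichever array was left out, and 23 lost it without E9fm replicate 3. The 114 late minus early calls became 17 with all 20 arrays, 103 with the block, 69 to 119 when a late array and 34 to 182 when an early array was left out, the early ones being added after the data were seen. The 453 mesenchyme minus epithelium calls became 27 with all 20 arrays, 871 without both doubted arrays, 496 with the block and 290 to 420 when 1 array was left out. The 5-fold counts of 33 and 132 became 490 and 1108 at 2-fold, 15 and 73 over brighter probe sets, and 16 to 132 and 128 to 157 when 1 array was left out. The cause of these shifts was not tested, beyond fewer probe sets or arrays where a setting takes them away.

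Differences that changed sign were of genes that did not pass in the fit concerned, PLAU with all arrays (+0.85) being the largest. With all arrays, leaving out 1 array gave -0.02 to 0.20 for CACNA1D, -0.03 to 0.44 for CAMK1G, -0.19 to 0.15 for ITPKA, -0.01 to 0.15 for ORAI1 and -0.07 to 0.24 for TBX5, array weights gave -0.02 for CACNA1D, 0.08 for ITPKA and -0.04 for TBX5, and the gene median gave -0.05 for PLAU and -0.10 for PRKCB. Without E9fm replicate 1, leaving out 1 more array gave -0.09 to 0.26 for CACNA1D, -0.04 to 0.10 for PRKCB, -0.65 to 0.16 for SLC8A3 and -0.09 to 0.21 for TBX5, weights gave -0.05 for CACNA1D and -0.03 for TBX5, the gene median -0.26 for PRKCB and the replicate block -0.12 for CACNA1D. Over single genes and list medians 3052 other values kept direction and side, 112 passed newly, 143 no longer passed and 102 list medians moved by more than the spread between E11sm arrays.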
